A study of Mus musculus with 32 samples.

Results

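The cytosolic ribosome of mouse germ cells was followed through its own protein genes, which were taken as all protein-coding genes of GENCODE release M21 whose symbol is Rpl or Rps with a number, Rplp0, Rplp1, Rplp2 or Rpsa, without the kinase genes that begin with Rps6k. The rule found 84 genes, and 83 of them were among the 20368 genes of the juvenile gene table, 52 of the large and 31 of the small subunit. They lie on 19 chromosomes, 14 of them on chromosome 7 and 4 on the X chromosome. Rps27, the remaining gene, was listed at 0 in every sample.

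RNA-seq of poly-A RNA was available for germ cells of 28 juvenile male C57BL/6J mice, 3 at 8 dpp (days post partum) and 5 at each of 10, 12, 14, 16 and 18 dpp, and for 4 adult samples of pachytene and diplotene spermatocytes. The study took 5 mice at 8 dpp as well, and left out those that matched others of their age poorly. It gave too few cells as the likely reason. The 3 mice kept at 8 dpp are thus a selected group, and their spread is that of this group. Each juvenile sample came from 1 mouse, from tubules digested with Liberase and washed to take away interstitial cells. Each adult sample was a pool from 6 mice of 9 weeks, enriched by sedimentation, which sorts cells by size. No group carried a mutation or a treatment, and the ages 8 to 18 dpp span the first wave of spermatogenesis, in which spermatocytes appear beside the spermatogonia.

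A ribosome is built from ribosomal RNA and one copy of most of its proteins, so the genes for these proteins are among the most abundantly transcribed in growing cells, and their transcripts are known for a run of pyrimidines at the very start through which the mTOR pathway controls their translation. In male meiosis the X chromosome is silenced at pachynema, and 4 ribosomal protein genes are X-linked. Some of these have autosomal paralogs, of which Rpl10l and Rpl39l are known for their expression in the testis.

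Levels are given as TPM, an abundance per transcript length that is scaled to the same total in every library, so levels of different genes can be set side by side. Read numbers are not kept on this scale, and precision is given only by the spread between samples. Values after ± are the SD over the 3 mice of 8 dpp, the 5 mice of each later age or the 4 adult pools, unless marked SE. Differences between ages are log2 differences of TPM + 1 with their standard errors (SE) from limma, in 1 model of the 28 mice, and a gene was called at a Benjamini-Hochberg adjusted p under 0.05 over all 20368 genes. The adult table was made separately, so its values are set beside the juvenile ones without a test.

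The samples were checked against cell markers. The summed TPM of 7 pachytene markers was 226 to 303 at 8 dpp, 2819 to 4376 at 18 dpp and 8214 to 8561 in the adult pools. Most of the sum in the last 2 groups was Ldhc, with means of 2396 TPM at 18 dpp and 6852 in adult pools. From 18 dpp to adult pools the means of Ldhc, Pgk2, Piwil1 and Hist1h1t were higher. Those of Sycp1 (231 to 106 TPM), Sycp3 (502 to 375) and H2afx (126 to 55.1) were lower. Sertoli cell markers were also present, although the cells are labelled germ cells. By cytology, the study found a high purity of germ cells in every juvenile sample, and of late pachytene and diplotene cells in the adult preparation. The 8 Sertoli genes summed to 6772 to 7619 at 8 dpp, 3220 to 4197 at 18 dpp and 292 to 430 in adult pools. No gene of this list was at 0 in all mice. The 5 peritubular markers summed to 1051 to 1160 in mice of 8 dpp, 524 to 1034 in those of 18 dpp and 5.57 to 10.7 in adult pools. The sums of macrophage, red blood cell, endothelial and spermatogonium markers were also lower in adult pools than at any age, and that of Leydig markers was not. Of the red blood cell markers, Alas2 went the other way, with a mean of 6.22 TPM in adult pools and 2.66 to 3.93 at the juvenile ages. Most of the Leydig sum in adult pools was Insl3, with a mean of 176 TPM against 58.3 to 127 at the juvenile ages. Adult means of Cyp11a1, Hsd3b1, Star and Lhcgr were below those of every juvenile age, and that of Cyp17a1 was not. The 6 spermatid markers summed to 872 to 1189 in the pools against at most 17.0 in a mouse. How far these cells contributed to the changes below was not tested, and in whole samples fewer cells of a type and less RNA per cell cannot be told apart. At 18 dpp the mice fell in 2 sets, since mice 1 to 3 had pachytene marker sums of 4210 to 4376 and mice 4 and 5 had 2819 to 2836.

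The coding sequences show how close the paralogs are to their parents, and therefore how well short reads can separate them. Rpl10, a large-subunit protein that joins in the last steps of subunit maturation, is encoded on the X chromosome (chrX:74270812-74273135 in GRCm38, plus strand). Rpl10-ps3 is an intronless copy on chromosome 9 (chr9:50344201-50344968, minus strand), annotated as protein-coding, and Rpl10l is a gene of 1 exon on chromosome 12 (chr12:66283379-66284401, minus strand). The first 90 coding bases of the 3 genes are given from GENCODE M21, with capitals for bases that differ from Rpl10.

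Rpl10: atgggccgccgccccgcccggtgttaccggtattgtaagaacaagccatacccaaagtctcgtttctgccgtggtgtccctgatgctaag
Rpl10-ps3: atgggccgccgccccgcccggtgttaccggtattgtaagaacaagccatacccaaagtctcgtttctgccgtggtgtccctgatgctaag
Rpl10l: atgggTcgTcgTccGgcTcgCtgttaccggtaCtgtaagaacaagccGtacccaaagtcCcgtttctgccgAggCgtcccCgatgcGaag

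The coding sequence of Rpl10-ps3 had 642 of 642 bases in common with Rpl10, whereas Rpl10l differed from Rpl10 at 98 of its 642 coding bases (84.7% identity), 13 of them in the stretch shown. Reads within the coding sequence therefore cannot separate Rpl10 from Rpl10-ps3, and can separate Rpl10l. Rpl39, a small protein of the tunnel through which the nascent chain leaves the ribosome, is encoded at chrX:37082520-37085402 (minus strand), and Rpl39l at chr16:10170226-10174911 (plus strand). Their whole coding sequences without the stop codon differ at 23 of 153 bases (85.0% identity), with capitals for the bases of Rpl39l that differ.

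Rpl39: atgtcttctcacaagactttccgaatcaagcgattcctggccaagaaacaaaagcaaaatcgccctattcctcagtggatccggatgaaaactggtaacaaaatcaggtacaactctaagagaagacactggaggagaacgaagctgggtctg
Rpl39l: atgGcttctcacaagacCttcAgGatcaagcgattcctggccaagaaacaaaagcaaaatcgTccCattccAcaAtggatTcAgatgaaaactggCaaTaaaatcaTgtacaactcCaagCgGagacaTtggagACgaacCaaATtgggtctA

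The other pairs were more or less diverged. Identity over the aligned bases of the longest annotated coding sequences was 87.7% for Rpl36al and Rpl36a, 75% for Rps27l and Rps27, 74.4% for Rpl3l and Rpl3, 70.2% for Rpl22l1 and Rpl22, and 62.6% for Rpl7l1 and Rpl7. Rps4l, a transcribed pseudogene in GENCODE M21 and so outside the rule, had no annotated coding sequence.

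All members together took a falling share of the transcriptome. The summed TPM of the 83 genes was 7.47%, 7.51% and 7.62% of all TPM in the 3 mice of 8 dpp. At 18 dpp it was 4.74%, 4.95%, 4.80%, 5.49% and 5.68%, and none of these mice reached the lowest mouse of 8 dpp. The mean fell by 2.40 percentage points, from 7.53% ± 0.0748 to 5.13% ± 0.425, with a two-sided exact permutation p of 0.0357, the smallest that 3 against 5 mice can give. Mice of 10, 12, 14 and 16 dpp had means of 7.53% ± 0.304, 6.64% ± 0.342, 6.30% ± 0.254 and 6.04% ± 0.196, respectively. From 14 to 18 dpp the mean fell by 1.17 points (two-sided exact permutation p = 0.00794, the smallest that 5 against 5 can give). Median-of-ratios scaling divides all genes of a library by the same factor, which cancels in a share, so it cannot change this fall. The summed TPM rescaled in this way is no longer a share of all TPM. From 14 to 18 dpp its mean fell by 0.263 on its own scale, which is not in percentage points (p = 0.0159 by the same exact test). The adult pools lay at 3.23%, 3.05%, 3.19% and 3.04%, below every juvenile mouse. At 18 dpp mice 1 to 3 spanned 4.74% to 4.95% and mice 4 and 5 spanned 5.49% to 5.68%, and mice 1 to 3 had the higher pachytene marker sums. The same sets differed in Sertoli markers, with 3220 to 3362 in mice 1 to 3 and 4143 to 4197 in mice 4 and 5, and in peritubular markers, with 524 to 586 and 1006 to 1034, and the part of these cells in the result was not tested. At 14 dpp mice 1 to 3 had shares of 5.97% to 6.28% and mice 6 and 7 had 6.54% to 6.56%, where mouse 6 had the highest pachytene marker sum of its age, 800 TPM. Sertoli sums there were 6661 to 6689 in mice 1 to 3 and 5718 and 5352 in mice 6 and 7, the reverse order of 18 dpp. Peritubular sums were 1097 to 1409 in mice 1 to 3 and 1632 and 1879 in mice 6 and 7. At 16 dpp the mouse sets lay the other way, with 6.05% to 6.24% in mice 1 to 3 and 5.80% to 5.90% in mice 4 and 5.

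**Figure D1:**
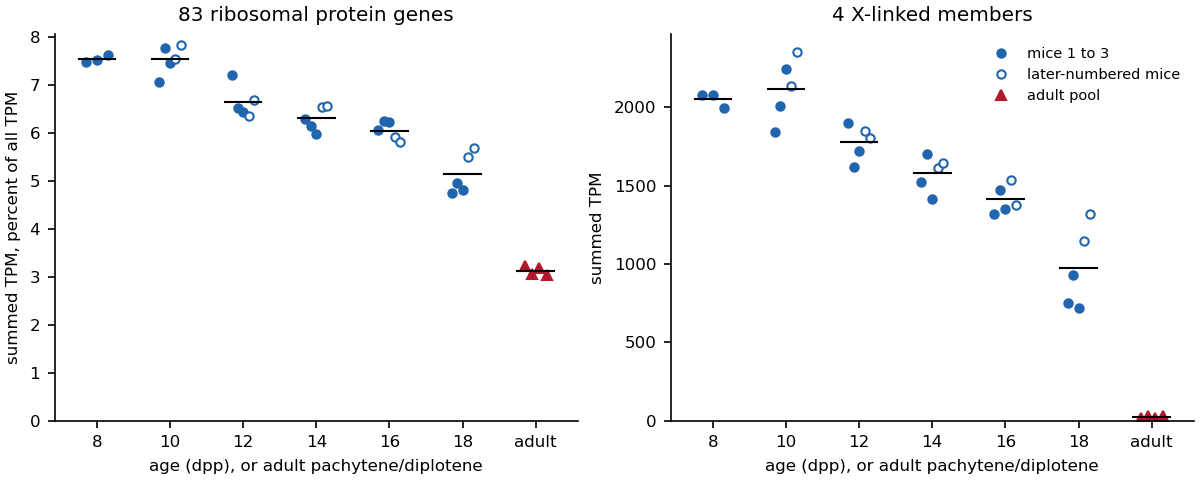
Summed TPM of the 83 ribosomal protein genes as a percent of all TPM (left) and of the 4 X-linked members in TPM (right), against age in dpp and in adult pachytene and diplotene cells. Each point is 1 mouse (filled for mice 1 to 3) or 1 adult pool (triangle), and lines are group means, which run from 7.53% to 5.13% and 3.13% on the left.

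Almost the whole set moved in one direction between 8 and 18 dpp. Of the 83 members, 70 were lower at 18 dpp, 4 were higher and 9 were not called, so 84.3% were lower and 4.82% higher. Over all genes 68.2% were called, 36.3% lower and 31.8% higher. The median log2 difference of the members was -0.52 and that of all genes -0.09. Mice of the 2 ages did not overlap for 71 of the 83 members, against 61.0% of all genes. Another scaling moved the median of all genes, to 0.05 with median-of-ratios factors and to -0.26 with quantile normalization, and the members' medians were then -0.34 and -0.33. The share called in either direction was 89.2% of members, which became 79.5% beside 66.7% of all genes with median-of-ratios factors and 72.3% beside 72.1% with quantile normalization. A single limma F test over the 6 ages called 75 of 83 members, beside 77.6% of all genes.

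**Figure D2:**
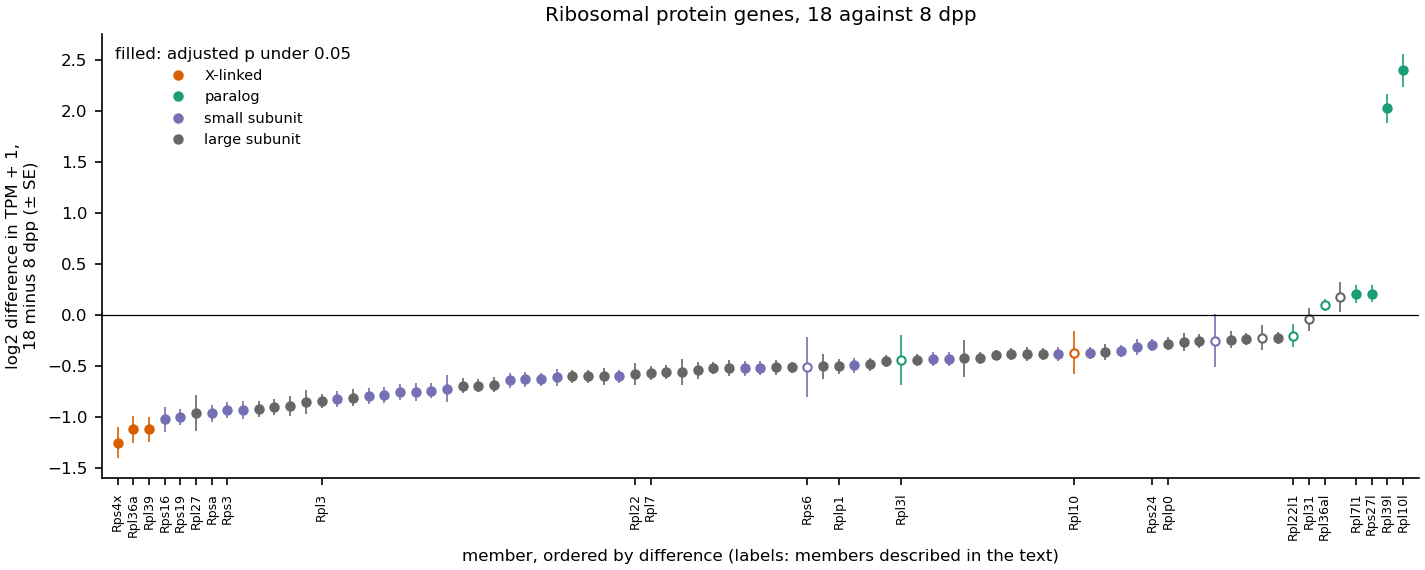
Log2 difference in TPM + 1 between 18 and 8 dpp for each of the 83 members, ordered by size, with the standard error as bars and labels for members described in the text. Filled points had an adjusted p under 0.05, and colours mark X-linked members, paralogs and the other members by subunit. The differences run from -1.25 for Rps4x to 2.40 for Rpl10l.

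Of the 31 small-subunit members 28 fell and 1 rose, with a median log2 difference of -0.63. Rps16 had 1027 ± 16.2 TPM in mice of 8 dpp and 513 ± 91.2 in those of 18 dpp, a log2 difference of -1.02 ± 0.124 (SE, adjusted p = 4.2e-08 by limma), and 161 ± 24.9 in adult pools. Rps19, a gene mutated in Diamond-Blackfan anaemia, went from 1229 ± 59.5 to 618 ± 88.5 TPM, a log2 difference of -1.0 ± 0.0803 (SE), and stood at 139 ± 4.00 in adult pools. Both are on chromosome 7. Rpsa, a small-subunit protein also known as the laminin receptor, fell by 0.96 on the log2 scale, from 843 ± 3.89 to 437 ± 72.6 TPM. Rps3, which lies where messenger RNA enters the small subunit, fell by 0.93, from 665 ± 5.46 to 350 ± 40.9 TPM. These were 4 of the 5 largest falls of members that are neither X-linked nor in a paralog pair. With its copy Rps16-ps2 added, Rps16 fell by 0.85 ± 0.0895 (SE), less than Rps19, Rpsa or Rps3. Rps24 was the third highest member over the juvenile mice and fell by only 0.29, from 1785 ± 58.4 to 1463 ± 103 TPM, and neither other scaling kept its call.

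Of the 52 large-subunit members 42 fell and 3 rose, with a median log2 difference of -0.49. The 3 proteins of the stalk, the arm that recruits elongation factors, all fell. Rplp1 was the highest member of all, with 2392 ± 34.1 TPM at 8 dpp, 1695 ± 201 at 18 dpp and 709 ± 66.8 in adult pools, a log2 difference between the ages of -0.50 ± 0.0735 (SE, limma adjusted p = 9.25e-07). Rplp0 fell by 0.28, from 1822 ± 74.6 to 1506 ± 80.9 TPM, a call that was lost with median-of-ratios factors (adjusted p = 0.196) and with quantile normalization (adjusted p = 0.374). Rpl27 had the remaining one of these 5 falls, by 0.96, from 98.2 ± 13.5 to 52.1 ± 19.0 TPM, and it has 2 near-identical copies. Levels across all 83 members ran from a mean of 2.01 TPM over the 28 mice for Rpl3l to 2197 for Rplp1, with a median of 822. Across members, the mean TPM and the log2 difference had a Spearman's rho of -0.28, a description over 83 genes that share libraries.

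Most calls between neighbouring ages fell in 2 of the 5 steps. Between 8 and 10 dpp 0 of 83 members were called by limma, where 1.20% of all genes were (0.977% higher and 0.226% lower), and 5 members had an unadjusted p under 0.05. From 10 to 12 dpp 37 members were lower and 2 higher, beside 9.39% of all genes lower and 12.0% higher, and the members' median log2 difference was -0.19 against 0.01 for all genes. From 12 to 14 dpp 0 members were called (0.172% of all genes, 0.157% higher and 0.0147% lower), with 5 at an unadjusted p under 0.05. From 14 to 16 dpp 2 were lower and 2 higher, beside 11.3% and 12.7% of all genes. From 16 to 18 dpp 56 were lower and 2 higher, beside 30.6% and 23.4% of all genes (54.0% in either direction), with a median of -0.24 against -0.11. In these fits 47.0% of members were called at 10 to 12 dpp, where 21.4% of all genes were, and 69.9% at 16 to 18 dpp. Neither excess held under every scaling. With quantile normalization 14 members were called at 10 to 12 dpp (16.9%, beside 20.1% of all genes), and with median-of-ratios factors 32 at 16 to 18 dpp (38.6%, beside 48.2% of all genes). These factors also moved the share of higher ones among the calls over all genes, from 43.4% to 63.0% at 16 to 18 dpp and from 53.0% to 66.3% at 14 to 16 dpp, where quantile normalization gave 41.6%.

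Index sequences of the libraries at 8 to 12 dpp were used again at 14 to 18 dpp, so the ages were also compared inside each set of indexes. Between 8 and 12 dpp 34 members were lower and 2 higher, beside 10.0% and 13.0% of all genes, and quantile normalization left 8 called (9.64%, beside 21.8% of all genes). Without any 1 of the 3 mice of 8 dpp the number called was 21 or 22 instead of 36. Between 14 and 18 dpp 63 were lower and 3 higher, beside 42.1% and 26.3% of all genes (68.4% in either direction), with a members' median of -0.29 against -0.21 for all genes, and 40 were called with median-of-ratios factors (48.2%, beside 62.0% of all genes), with which the share of higher ones among the calls over all genes went from 38.5% to 54.3%.

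The 4 X-linked members were low in adult cells. Summed over the 4 genes, TPM was 2052 ± 48.2 in mice of 8 dpp, 976 ± 258 in those of 18 dpp and 26.0 ± 7.08 in adult pools, which was 2.73%, 1.88% and 0.0836% of the TPM of all members. Their adult means were 1.73% to 6.62% of those at 18 dpp, and the 72 autosomal members that are no paralog had 19.5% to 126%, with a median of 59.0%. The 4 X-linked genes were thus the only members with an adult mean under 10% of that at 18 dpp. This contrast with the autosomal genes is a description, since the adult and juvenile tables were made separately.

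Rps4x, an RNA-binding protein of the small subunit (chrX:102184941-102189394, minus strand), had 715, 796 and 708 TPM at 8 dpp and 243, 266, 237, 401 and 467 TPM in mice 1 to 5 of 18 dpp. Its log2 difference of -1.25 ± 0.150 (SE, limma adjusted p = 3.65e-08) was the largest fall of any member. In adult pools it had 4.76, 8.00, 7.24 and 8.09 TPM, so every sample of a later group was below every sample of an earlier one. Rpl36a, a large-subunit protein (chrX:134585654-134588062, plus strand), had 758, 644 and 658 TPM at 8 dpp, 250, 307, 235, 388 and 442 TPM at 18 dpp, and 5.38, 5.41, 5.88 and 5.74 TPM in adult pools. Rpl39 had 492, 535 and 530 TPM at 8 dpp, 193, 230, 190, 280 and 321 at 18 dpp, and 4.46, 10.8, 6.72 and 8.68 in adult pools. Both fell by 1.12 on the log2 scale, and in all 3 genes mice 4 and 5 of 18 dpp were above mice 1 to 3.

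Rpl10 differed from the other X-linked members in level and in change. It had 114, 106 and 101 TPM at 8 dpp and 66.8, 129, 61.1, 81.0 and 91.4 TPM at 18 dpp, and the ages overlapped, with a log2 difference of -0.37 ± 0.211 (SE, limma adjusted p = 0.128). Its identical copy on chromosome 9 had the larger values, with 755, 799 and 764 TPM for Rpl10-ps3 at 8 dpp and 312, 256, 330, 484 and 579 TPM at 18 dpp. Adult values of the autosomal copy were as low as those of the X-linked gene, at 11.4, 3.46, 10.3 and 6.53 TPM against 4.64, 9.81, 1.05 and 7.25 TPM. Summed, the 2 genes had 880 ± 21.5 TPM at 8 dpp, 478 ± 133 at 18 dpp and 13.6 ± 1.94 in adult pools, and the sum fell by 0.92 ± 0.129 (SE) on the log2 scale (limma adjusted p = 4.84e-07). How this TPM is divided between both loci rests on the authors' estimate.

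Copies that share sequence mattered for other members as well. With words of 50 bases, a median of 51.4% of a member's words occurred in another gene's transcripts, and Rpl39l and Rpl3l shared none. A copy that held at least 25% of the words and had a mean of at least 3 TPM was found for 27 members, and for 13 of them the copy's mean TPM exceeded the member's. By this measure a copy need share only a part of the transcript, such as 30.2% of the words for Rpl15. It also took in the protein-coding genes Wdr89, BC004004 and Gm45713, for Rplp2, Rpl21 and Rpl13a. Of the 13 members with a mean under 100 TPM, Rps27 included, 10 had such a larger copy. Rps27 was listed at 0, while Rps27rt, an intronless copy with 252 of 252 coding bases in common, had 1432, 1575 and 1506 TPM at 8 dpp, 976 to 1166 at 18 dpp and 770 to 847 in adult pools. Rps6, the substrate of the S6 kinases and with 36.0 ± 6.07 TPM at 8 dpp and 26.8 ± 11.8 at 18 dpp one of the 3 lowest members, had 1443 ± 58.7 and 1013 ± 91.6 TPM with its copy added. For Rpl31, the other low one beside Rpl3l, no copy passed these limits, although 32.9% of its words occurred in transcripts of other genes. Rpl31 showed 26.9 ± 0.768 and 26.2 ± 3.62 TPM, a log2 difference of -0.04 that was 0.13 with median-of-ratios factors.

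Adding the copies removed most of the exceptions among the ubiquitous genes. Rpl10, Rps6, Rps13, Rpl15 and Rpl28, which were not called alone, were all lower at 18 dpp as sums, with log2 differences from -0.33 for Rps13 to -0.92 for Rpl10. Of 84 sums, 76 were lower, 4 higher and 4 not called. The 4 that were not called were Rpl31 and the paralogs Rpl22l1, Rpl36al and Rpl3l, and the 4 higher ones were the same paralogs that rose alone. The fall of Rpl27 was smaller as a sum, at 0.47 ± 0.0604 (SE) on the log2 scale. The members with a copy and those without had medians of -0.52 and -0.51 before the copies were added. In all, 26 members overlap another annotated gene, 21 of them one on the opposite strand, and strand-specific counting is not stated for these libraries.

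Of the 7 paralogs in the rule 4 were higher at 18 than at 8 dpp, 0 lower and 3 not called, whereas 67 of the 72 other autosomal members were lower and 0 higher. This split of the paralogs depended on scaling. With quantile normalization Rpl7l1 and Rps27l were not called, and Rpl22l1 and Rpl3l were called lower. Rpl10l had 51.8, 51.4 and 52.6 TPM at 8 dpp, 210, 160, 136, 121 and 149 TPM at 16 dpp, 313, 298, 326, 243 and 225 TPM at 18 dpp, and 421, 417, 437 and 409 TPM in adult pools. Its log2 difference between 18 and 8 dpp was 2.40 ± 0.162 (SE, limma adjusted p = 7.22e-13), and the ages did not overlap. Rpl39l had 77.8, 77.5 and 83.0 TPM at 8 dpp, 239, 191, 161, 154 and 198 TPM at 16 dpp, 385, 387, 379, 247 and 272 TPM at 18 dpp, and 570, 571, 568 and 541 TPM in adult pools. Its log2 difference was 2.03 ± 0.142 (SE, limma adjusted p = 1.37e-12). Both genes rose in the steps from 10 to 12, 14 to 16 and 16 to 18 dpp, and were the only members called higher in any of these steps. For Rpl10l the step from 10 to 12 dpp was close to the threshold (0.39, limma adjusted p = 0.0488), and its mice overlapped. In both genes mice 4 and 5 of 18 dpp were below mice 1 to 3, the reverse of Rps4x, Rpl36a and Rpl39.

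The other paralogs differed less between 8 and 18 dpp. Rpl36al went from 338 ± 1.73 TPM at 8 dpp to 362 ± 18.1 at 18 dpp and 424 ± 29.8 in adult pools, with a log2 difference of 0.10 ± 0.0591 between the ages (SE, limma adjusted p = 0.148), which was 0.27 and called with median-of-ratios factors. Rpl22l1 had 153 ± 4.54, 133 ± 10.9 and 166 ± 13.2 TPM in the same groups and was not called. It was called lower with quantile normalization (-0.29, limma adjusted p = 0.0250) and with the compared ages alone (-0.20, limma adjusted p = 0.0466). Rps27l, a paralog known as a p53 target, had 228 ± 14.2 TPM at 8 dpp, 266 ± 31.7 at 18 dpp and 114 ± 10.2 in adult pools. Rpl7l1 had 57.8 ± 2.01, 67.3 ± 7.94 and 25.3 ± 2.61 TPM. Both of these were called higher by 0.21 at 18 dpp (limma adjusted p = 0.0284 and 0.0362), but their mice overlapped, and these calls were lost without mouse 4 or without mouse 5 of 18 dpp, without mouse 2 of 8 dpp, with mice 1 to 3 alone and with quantile normalization. These genes were also the 2 members called higher at 12 than at 8 dpp, by 0.38 for Rpl7l1 and 0.29 for Rps27l (limma adjusted p = 0.00219 and 0.0146), and there the mice did not overlap. Rpl3l, a paralog of heart and skeletal muscle, had 1.68 to 2.57 TPM at 8 dpp and 0.480 to 2.53 TPM at 18 dpp and was listed at 0 in 2 of the 4 adult pools. At these low levels it was not called, but was called lower with quantile normalization (-0.86). The same held with mice 1 to 3 alone (-0.71) and without mouse 4 of 18 dpp (-0.58).

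**Figure D3:**
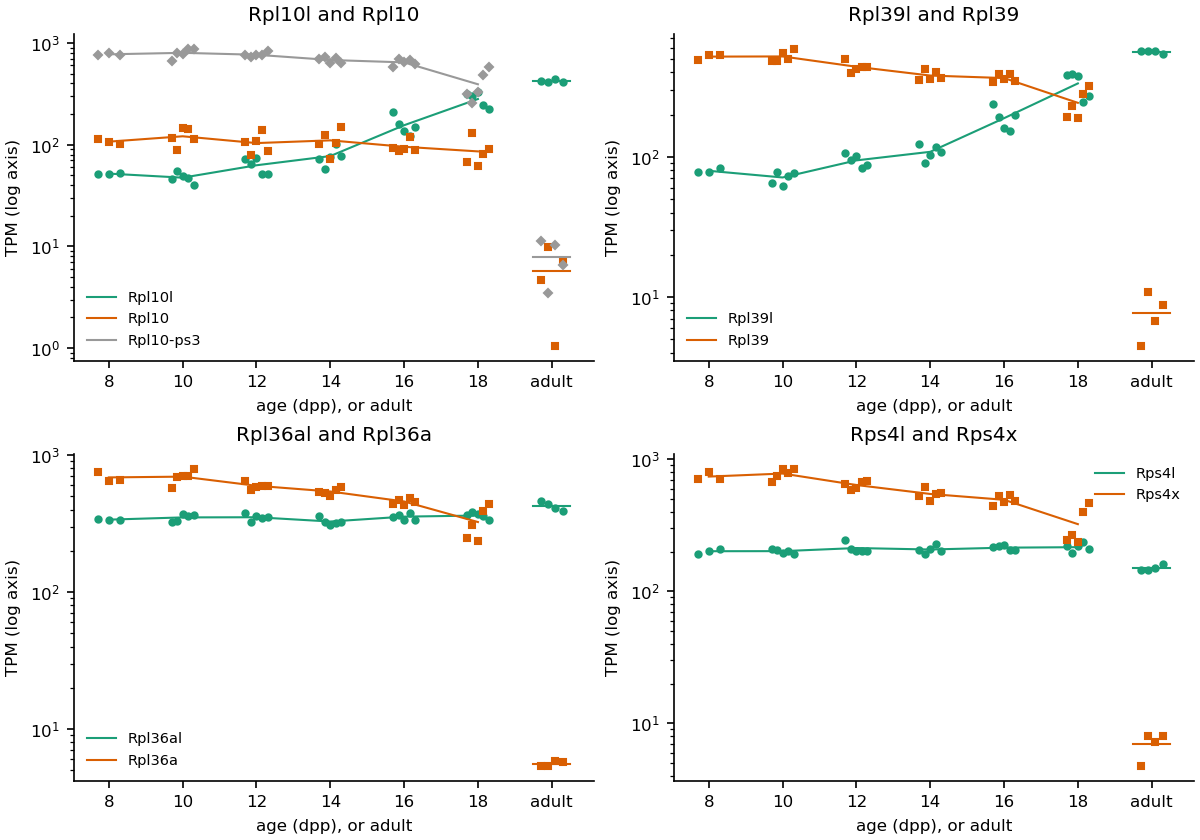
TPM on a log axis of 4 autosomal paralogs (circles) and their X-linked parents (squares), with the autosomal Rpl10-ps3 (diamonds), against age in dpp and in adult pachytene and diplotene cells. Each point is 1 mouse or 1 adult pool, and lines join or mark group means. Rpl10l rises from 52.0 to 421 TPM, and Rps4x ends at 7.02 TPM beside 151 TPM for Rps4l.

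The ratio of paralog to parent was then compared within each mouse, which removes the scaling between libraries. Ratios are log2 of paralog TPM + 1 over parent TPM + 1, for 7 pairs and 2 comparisons, with p-values adjusted over the 14 tests, and Rps27l could not be set against Rps27, which is listed at 0. Between 14 and 18 dpp the Rpl10l/Rpl10 ratio went from -0.49 ± 0.514 to 1.73 ± 0.543 and the Rpl39l/Rpl39 ratio from -1.80 ± 0.268 to 0.46 ± 0.623. The Rpl36al/Rpl36a ratio went from -0.73 ± 0.0997 to 0.20 ± 0.451, the Rps4l/Rps4x ratio from -1.39 ± 0.190 to -0.52 ± 0.445, and the Rpl22l1/Rpl22 ratio from -2.56 ± 0.198 to -1.85 ± 0.282. For all 5 pairs the mice of the 2 ages did not overlap, and the two-sided exact permutation p was 0.00794, or 0.0222 when adjusted. Rpl7l1/Rpl7 differed by 0.08 (adjusted p = 0.101, exact test) and Rpl3l/Rpl3 by 0.10 (adjusted p = 0.651, exact test).

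Between 8 and 18 dpp the differences were larger for the same X-linked parents, at 2.76 for Rpl10l/Rpl10, 3.16 for Rpl39l/Rpl39, 1.22 for Rpl36al/Rpl36a and 1.35 for Rps4l/Rps4x, with 0.78 for Rpl7l1/Rpl7. All 5 had the smallest two-sided exact permutation p that 3 against 5 mice can give, 0.0357, which is 0.05 after adjustment and so not under the threshold. Rpl22l1/Rpl22 differed by 0.38 (exact permutation p = 0.107) and Rpl3l/Rpl3 by 0.40 (exact permutation p = 0.214). In the adult pools the ratio was 6.22 ± 1.09 for Rpl10l/Rpl10, 6.08 ± 0.489 for Rpl39l/Rpl39, 6.01 ± 0.149 for Rpl36al/Rpl36a and 4.27 ± 0.279 for Rps4l/Rps4x. With the TPM of Rpl10-ps3 added to Rpl10, the Rpl10l/Rpl10 ratio was -4.06 ± 0.0498 at 8 dpp, -0.74 ± 0.613 at 18 dpp and 4.86 ± 0.218 in adult pools, so the paralog then exceeded the parent in adult cells and not at 18 dpp. Rps4l stood at 151 ± 7.58 TPM in adult pools and changed little among mice, from 192, 201 and 211 TPM at 8 dpp to 195 to 235 TPM at 18 dpp. For the autosomal Rpl22, which fell from 723 ± 85.8 to 487 ± 93.3 TPM and stood at 110 ± 15.9 in adult pools, the paralog reached the higher level in adult cells, with a ratio of 0.59 ± 0.175. Rpl7 and Rpl3 fell by 0.57 and 0.84 and kept far higher levels than their paralogs in all groups, with adult ratios of -3.90 ± 0.122 and -7.66 ± 0.271.

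**Figure D4:**
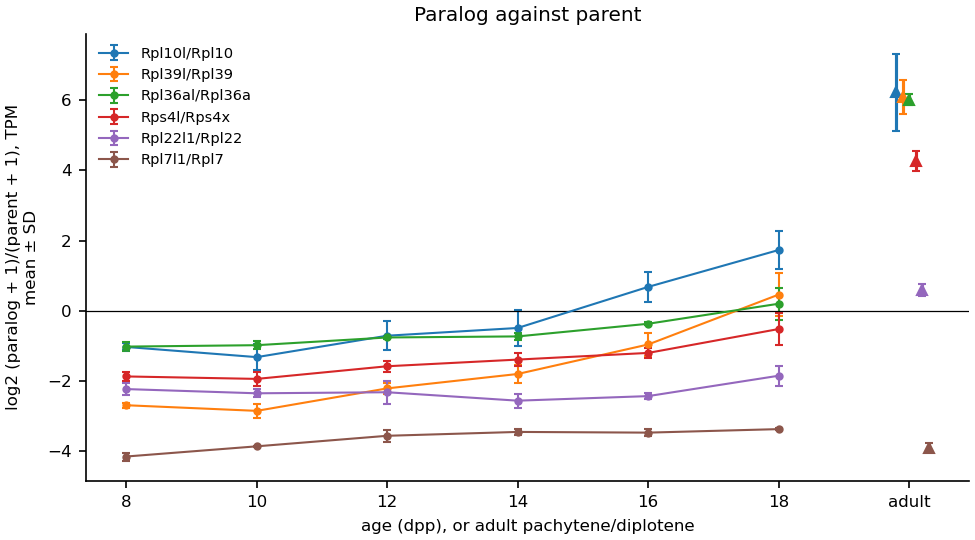
Log2 ratio of paralog to parent (TPM + 1) for 6 pairs against age in dpp and in adult pachytene and diplotene cells (triangles), as mean ± SD over 3 mice at 8 dpp, 5 mice at later ages and 4 adult pools. The 4 pairs with an X-linked parent lie between 4.27 and 6.22 in adult cells, and Rpl7l1/Rpl7 lies at -3.90.

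Adult levels of the members were mostly below those at 18 dpp. The adult mean was lower for 75 of the 83 members, with a median of 57.6% of the mean at 18 dpp, and for 67 members all 4 pools lay below all 5 mice. The matching shares over all genes were not counted, so these counts do not set the members apart from other genes. The lowest autosomal values after Rpl3l were those of Rpl10a at 19.5%, Rps19 at 22.5%, Rpl22 at 22.6% and Rps2 at 26.6%. Rpl10a is 26.7% with its near-identical copy added. At the other end Rpl24 had 511 ± 18.8 TPM at 18 dpp and 499 ± 15.7 in adult pools, Rps7 749 ± 19.9 and 739 ± 20.3, and Rpl13 1003 ± 91.1 and 1005 ± 43.1, genes that were chosen after their values were seen. With its copies added, Rpl13 had 1182 ± 61.7 TPM at 18 dpp and 1049 ± 21.1 in adult pools. The ratio of adult to 18 dpp was therefore not the same for all autosomal members. All 4 pools exceeded all 5 mice for 4 members. With the copies found by shared words added, 4 of 84 members had an adult mean above that at 18 dpp, and these were the paralogs Rpl10l, Rpl39l, Rpl36al and Rpl22l1.

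**Figure D5:**
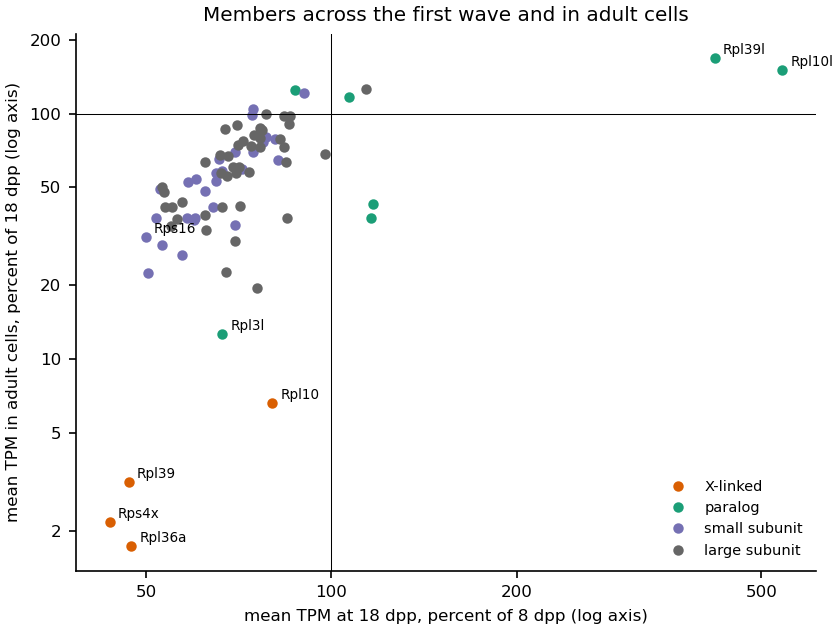
Mean TPM in adult pachytene and diplotene cells as a percent of the mean at 18 dpp, against the mean at 18 dpp as a percent of that at 8 dpp, for each of the 83 members (log axes). The 4 X-linked members lie at 1.73% to 6.62% on the vertical axis, and Rpl10l and Rpl39l lie at 150% and 168%.

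Some ribosomal proteins are encoded by genes whose symbols fall outside the rule. Rack1, a scaffold on the head of the small subunit, fell by 0.67 ± 0.0780 on the log2 scale (SE, limma adjusted p = 2.06e-08), from 758 ± 11.7 to 479 ± 66.1 TPM, and had 195 ± 6.64 in adult pools. Fau, a small-subunit protein fused to a ubiquitin-like one, had 244 ± 22.1, 256 ± 48.1 and 278 ± 22.4 TPM and was not called, with a difference of 0.05 that was -0.02 with quantile normalization and -0.01 without mouse 4 of 18 dpp.

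Genes that build the ribosome and those that govern its synthesis were compared over 18 against 8 dpp as well. Of 49 tested ribosome biogenesis genes 24 fell, 11 rose and 14 were not called, with a median log2 difference of -0.14 against -0.09 for all genes. These were 49.0% lower and 22.4% higher, beside 36.3% and 31.8% of all genes. Ubtf, which activates transcription of ribosomal RNA genes, fell by 1.26 ± 0.0726 (SE) and from 120 ± 14.9 TPM at 18 dpp stood at 7.98 ± 1.73 in adult pools, and the nucleolar gene Noc2l fell by 1.09 ± 0.0953 and stood at 1.80 ± 0.234. Wdr12, a factor of large-subunit processing, rose by 1.43 ± 0.174, from 29.3 TPM at 8 dpp, and had 232 ± 7.95 in adult pools. Sbds, which helps to release a factor from the new large subunit, rose by 1.13 ± 0.124 and had 239 ± 18.4 TPM in adult pools. Among 16 other transcripts known to start with a pyrimidine run 13 fell and 2 rose (81.2% and 12.5%, beside 36.3% and 31.8% of all genes), with a median of -0.49 against -0.09. Hnrnpa1 fell by 1.41 ± 0.0857 and Tpt1 by 0.92 ± 0.0874. Pabpc1, the cytoplasmic poly-A binding protein, rose by 1.81 ± 0.109, from 441 ± 8.06 to 1565 ± 261 TPM, and had 2857 ± 50.1 in adult pools. Btf3 was called higher by 0.23 ± 0.0680.

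Of 11 regulators of this class of transcripts 8 fell, 2 rose and 1 was not called (72.7% lower and 18.2% higher, beside 36.3% and 31.8% of all genes), with a median of -0.54 against -0.09. Eif4ebp1, a repressor of cap-dependent translation, fell by 1.53 ± 0.162, to 28.9 ± 9.00 TPM at 18 dpp and 0.853 ± 0.190 in adult pools. Myc, a transcription factor of growth genes, fell by 1.36 ± 0.204 and had 0.342 ± 0.152 TPM in adult pools. Larp1, which binds the starts of these transcripts, rose by 1.05 ± 0.124, from 79.1 ± 2.63 to 169 ± 40.4 TPM, and Mtor rose by 0.40 ± 0.0859. The lists were chosen with these data known and the directions of their members are descriptions.

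Sequence features that the rule did not use were counted in the promoters of the members, most of which were lower at 18 dpp. RefSeq start sites on GRCm38.p6 gave a promoter of 300 bases for 64 of the 84 members and for 16522 protein-coding genes in all. A run of at least 8 pyrimidines (C or T on the gene's strand) lay within 30 bases of the start for 54.7% of members and 25.5% of all genes, and across the start itself for 26.6% and 4.29%. The longest run in this window had a median of 9 bases in members and 6 in all genes. From 250 bases before to 50 after the start, on either strand, CCGGAAG was found for 40.6% of members and 13.4% of all genes, TCTTTC for 40.6% and 22.7%, AAGATGGC for 9.38% and 3.64%, and the TATA box letters TATAAA for 10.9% and 14.3%. A match is only a description of these letters. The windows from 30 bases before to 30 after the start are shown for the 2 X-linked parents with a rising paralog, for those paralogs, and for the first of 2 listed starts of Rps24, an abundant member with a run across this start, with the longest pyrimidine run in capitals. They are at chrX:74270786-74270845 (plus) for Rpl10, chr12:66284372-66284431 (minus) for Rpl10l, chrX:37085193-37085252 (minus) for Rpl39, chr16:10170198-10170257 (plus) for Rpl39l and chr14:24490648-24490707 (plus) for Rps24.

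Rpl10: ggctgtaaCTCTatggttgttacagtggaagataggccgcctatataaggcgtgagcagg
Rpl10l: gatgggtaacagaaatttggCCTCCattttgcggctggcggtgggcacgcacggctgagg
Rpl39: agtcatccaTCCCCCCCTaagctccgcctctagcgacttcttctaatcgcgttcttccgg
Rpl39l: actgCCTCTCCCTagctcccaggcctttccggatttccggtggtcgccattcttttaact
Rps24: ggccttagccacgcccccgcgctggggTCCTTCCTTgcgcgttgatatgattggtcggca

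The longest run was 4 bases in Rpl10 and 5 in Rpl10l, 9 bases in both Rpl39 and Rpl39l, and 9 bases in Rps24, where it began 3 bases before the start. The other listed start of Rps24, at chr14:24490723-24490782 (plus), has a run of 12 bases that begins 30 bases before it and does not cross it.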

How the data were processed

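Per the labels and the study's methods, the authors sequenced poly-A libraries as 100 bp read pairs and computed TPM with RSEM 1.2.8 from Bowtie 1.0.0 alignments, using a transcript set built from Ensembl 75, NONCODE 4 and precursors of piRNAs. The deposited juvenile gene table held exp(log2(TPM + 1)) - 1 (unit score) and was converted back to TPM; 82 of 83 members were then within 0.2 TPM of the deposited transcript TPM summed per gene. The deposited transcript and adult tables held TPM. Totals of the converted columns were 990305 to 993726, and depth and counting error cannot be given. 0 other per-sample columns were left unused.

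Ages were compared with limma 3.58.1 (R 4.3.3, trend) on log2(TPM + 1) over 20368 genes of at least 3 TPM in at least 1 mouse. In simulated data for 18 against 8 dpp over 20368 genes, 98% of 200 genes changed by 1 log2 unit were recovered, and 5.77% of calls were unchanged genes. Most members changed by less than this, and far more genes were called in the real data, so these rates do not carry over to the calls above. Single values were tested with exact permutation tests (scipy 1.17.1). Copies were found by shared 50-base words in GENCODE M21 transcripts, and coding sequences aligned with Biopython 1.88. The members, lists and tests were chosen with earlier results of these data known. Named were paralogs and parents, X-linked members, the 5 largest rises and falls of other members whose mice do not overlap (no such rise was found), the 3 highest and 3 lowest members, the ribosomal proteins outside the rule, and 2 rises and 2 falls of each list, except genes that are not reported here.

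Alternatives were a pseudocount of 0.1, no filter, at least 3 mice, median-of-ratios factors, quantile normalization, summed transcripts, the compared ages alone, mice 1 to 3 alone, a replicate block and leaving out each sample. Adding copies and the mouse set as a covariate were chosen after seeing the data. Proteins were not analysed here.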

Additional observations from a re-analysis of the deposited data

Results flagged for a closer look

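Among 246 groups of 4 or 5 samples of the named genes and of the summed share, 13 had 1 sample far from the others by Dixon's test, or 5.28%, where chance gives about 1 in 20. Among ribosomal protein genes, Rpl10 had 119 TPM in mouse 4 of 16 dpp where the next was 92.5, and Rpl22l1 had 138 TPM in mouse 1 of 16 dpp where the next was 116. Rps16 had 1227 TPM in mouse 1 of 12 dpp (next 899) and 792 TPM in mouse 4 of 16 dpp (next 678). Rpl31 had 35.7 TPM in mouse 2 of 12 dpp (next 27.6) and 32.6 TPM in mouse 5 of 18 dpp (next 25.4). Rps4l had 246 TPM in mouse 1 of 12 dpp (next 211), and Rpl39l was lowest in adult pool 4 with 541 TPM (next 568). Outside the rule, Fau was highest in mouse 1 of 10 dpp with 301 TPM and in adult pool 3 with 311 TPM, Btf3 was lowest in mouse 1 of 14 dpp with 440 TPM, and Tpt1 and Myc were highest in mouse 2 of 14 dpp with 1407 and 35.8 TPM.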

How the results depend on the processing

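Between 8 and 18 dpp more members were lower than higher in every alternative that was run. For 18 against 8 dpp, 58 to 76 members were lower over all alternatives, with 67 to 71 when 1 mouse was left out. The number higher was 2 instead of 4 with no filter on low values, quantile normalization, mice 1 to 3 alone or the compared ages alone, 2 to 4 without 1 mouse, and 3 with the replicate block. For 12 against 10 dpp, 14 members were called with quantile normalization instead of 39. For 16 against 14 dpp, 2 were called with no filter, median-of-ratios factors, the replicate block or mice 1 to 3 alone, 10 with the compared ages alone, and 2 to 5 without 1 mouse. For 18 against 16 dpp, 32 were called with median-of-ratios factors, and for 18 against 14 dpp 40 with these factors. For 12 against 8 dpp, 8 were called with quantile normalization and 21 to 45 without 1 mouse. Of the other transcripts with a pyrimidine run, 1 rose instead of 2 with the compared ages alone. Of named genes, 22 calls were lost and 13 gained over all alternatives. The causes were not tested.

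With mice 1 to 3 alone the summed share changed by -2.70 points from 8 dpp and by -1.30 points from 14 dpp (p = 0.1, the smallest the exact permutation test of 3 against 3 allows). Leaving out 1 mouse changed it by -2.54 to -2.30 points from 8 dpp, with exact p-values of 0.0571 or 0.0952, the smallest those sizes allow. With mice 1 to 3 alone, the ratio differences from 14 to 18 dpp were 2.43 for Rpl10l/Rpl10, 2.75 for Rpl39l/Rpl39, 1.17 for Rpl36al/Rpl36a, 1.19 for Rps4l/Rps4x and 0.80 for Rpl22l1/Rpl22, at the same smallest p. Rpl7l1/Rpl7 passed the threshold at 0.12 without mouse 6 of 14 dpp (range 0.06 to 0.12). Rpl3l/Rpl3 turned to -0.18 with a pseudocount of 0.1 and spanned -0.01 to 0.26 without 1 mouse. With that pseudocount the adult ratios were 6.22 for Rpl36al/Rpl36a and -10.13 for Rpl3l/Rpl3. Of named genes, Rpl31 turned to 0.13 with median-of-ratios factors and Fau to -0.02 with quantile normalization and -0.01 to 0.17 without 1 mouse. Deviations of mice with the same number correlated at a median of 0.01 (range -0.25 to 0.25, 57 pairs), so the numbers do not pair the mice. The replicate block gave 71 members lower at 18 than at 8 dpp.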
